A study of Mus musculus with 22 samples.

Results

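The data described here are 6 RNA-seq libraries of mouse leukaemia cells, out of 22 libraries in the series. All 6 were made from the same kind of MLL-AF9 acute myeloid leukaemia (AML) cell after 48 h on mesenchymal stromal cells (MSC): 3 after culture on wild type stroma (WT_AML) and 3 after culture on stroma from Lama4-/- mice (KO_AML). They were chosen by the titles of the raw count columns, KO_AML replicates 1 to 3 against WT_AML replicates 1 to 3. The leukaemia cells were C57BL/6J bone marrow Lineage-KIT+ cells carrying human MLL-AF9 by retroviral transduction, labelled wild type and 10 to 12 weeks of age in both groups, so that "KO" and "WT" name the genotype of the stroma and not of the leukaemia. The stroma was expanded from sorted bone marrow cells of wild type or Lama4-/- C57BL/6J mice and plated 24 h ahead of the AML cells, from mice labelled 10 to 14 weeks of age, with 30000 cells of each kind per well. Leukaemia cells were then sorted as CD45.1+ and the co-cultured stroma as CD45-CD44-Sca1+. The co-cultured stroma gave 5 wild type and 3 Lama4-/- libraries, which serve here as the reference for stromal transcripts. One of those 3 has an AML cell type label and an MSC title, and it was used as MSC. The labels do not say whether replicates came from separate cultures or animals, so p-values measure the spread between these libraries, which may be technical.

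Lama4 encodes the laminin alpha 4 chain, a part of the basement membrane laminins that stromal and vascular cells lay down. Blood cells attach to such laminins through integrins, among them alpha 6 beta 1, whose chains are encoded by Itga6 and Itgb1. MLL-AF9 is a fusion that keeps HOXA cluster genes and their partner Meis1 on in myeloid progenitors. A sorted leukaemia fraction from a co-culture can carry RNA of the stroma, so each gene was placed in a class by comparing its level in the AML libraries with that in co-cultured MSC. The leukaemia class had a mean in AML libraries at least equal to the mean in co-cultured MSC in both genotypes, the stromal class had at least 10 times more in MSC in either genotype, and the rest lay between. Levels are counts scaled to library size by trimmed means (CPM), not corrected for transcript length.

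The AML libraries held 11201751 to 21507251 counts, and the leukaemia class made up 68.3% to 69.4% of each. The pan-leukocyte gene Ptprc, which encodes CD45, was at 175 to 218 CPM in the 6 AML libraries and at 0.548 to 3.96 CPM in co-cultured MSC. Mpo, the myeloperoxidase of neutrophil precursors, was at 4711 to 5706 CPM, and Hoxa9 at 227 to 279 CPM. Markers of other blood and vessel cells were low as summed levels, and some members of each list had no count in any of the 6. For 12 endothelial markers, 3 of them at 0 including Emcn, the sum ran from 33.3 to 38.8 CPM in WT_AML and 34.2 to 40.8 CPM in KO_AML, nearly all of it Flt1, a VEGF receptor at 32.4 to 40.3 CPM. For 16 B, T and NK cell markers, 9 of them at 0 including Cd3e and Ms4a1, it ran from 10.8 to 13.7 and from 10.8 to 14.9 CPM, led by Nkg7. For 15 mast cell, basophil and eosinophil markers, 7 of them at 0 including Fcer1a, it ran from 7.58 to 9.37 and from 7.11 to 7.95 CPM, led by the basophil protease gene Mcpt8. Of 15 erythroid and megakaryocyte markers, 13 were in the count data, 3 of these at 0 including Hbb-bs. The sum over the 13 ran from 1.52 to 3.15 and from 1.88 to 2.15 CPM, with Klf1 at 0.505 to 2.26 CPM.

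Stromal transcripts were present in all 6 libraries, where fewer stromal cells and less RNA per cell cannot be told apart. Over 300 genes that were at 100 CPM or more in every co-cultured MSC library and at most 2% of that in the lowest AML library, the median level relative to co-cultured MSC of the same genotype was 0.638%, 0.912% and 1.22% in WT_AML replicates 1 to 3. In KO_AML it was 0.306%, 1.13% and 0.418%. The groups overlapped, because KO_AML replicate 2 carried nearly as much as the highest WT_AML library. The means were 0.924% ± 0.293 and 0.617% ± 0.445 (SD, n = 3 each), a difference of -0.307 percentage points (two-sided exact permutation test, p = 0.3, where 3 against 3 cannot go below 0.1). The summed level of the 14 defining stromal markers ran from 367 to 628 CPM in WT_AML and from 167 to 664 CPM in KO_AML, against 58668 to 93961 CPM in co-cultured MSC. The Lama4-/- reference may not match the stroma of each KO_AML library, and levels relative to it carry that limit. KO_AML replicate 2 held 2.07 CPM of the Y-linked genes Ddx3y, Uty, Kdm5d and Eif2s3y summed. The co-cultured Lama4-/- MSC libraries themselves held 0 to 2.57 CPM. The effect on the shares was not tested.

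**Figure D1:**
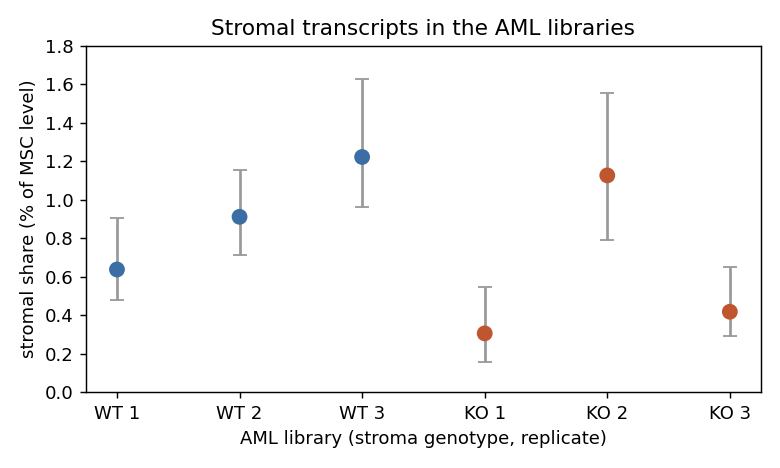
Stromal share of each AML library: the median over 300 stromal genes of the AML level as a percent of the co-cultured MSC mean of the same genotype (vertical axis, %), with bars from the first to the third quartile over genes. KO_AML replicate 2 sits at 1.13% and the other KO libraries at 0.306% and 0.418%, while the WT libraries run from 0.638% to 1.22%.

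Between KO_AML and WT_AML, 12444 genes were tested with edgeR's quasi-likelihood test, and 6 passed a Benjamini-Hochberg adjusted p of 0.05, which is 0.0482% of those tested. Of these, 1 was higher with Lama4-/- stroma (0.00804%) and 5 were lower (0.0402%). An unadjusted p under 0.05 was reached by 715 genes (5.75%), 309 of them higher (2.48%) and 406 lower (3.26%). The groups did not overlap for 1281 genes (10.3%), 406 of them higher (3.26%) and 875 lower (7.03%). The 1 higher gene, Chil3, was in the leukaemia class, where 6220 genes were tested. All 5 lower genes, among them Lama4, Igfbp3, Irx3 and Itih2, were in the stromal class of 1150 genes. None of the 5074 genes in between passed. Unadjusted p-values under 0.05 made up 5.23% of the leukaemia class, 5.22% of the genes in between and 10.9% of the stromal class. The number of calls rested on single libraries: without KO_AML replicate 2 there were 28, 23 of them stromal and all lower, without KO_AML replicate 1 there was 1, and without KO_AML replicate 3 or WT_AML replicate 2 there were 2. Leaving out WT_AML replicate 1 gave 10 calls and leaving out WT_AML replicate 3 gave 3.

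Chil3 encodes Ym1, a chitinase-like protein of neutrophil granules and activated macrophages. It lies on chromosome 3 at 106147554 to 106167564 of GRCm38, on the minus strand. It was at 66.5, 55.1 and 53.2 CPM in WT_AML and at 73.1, 87.7 and 81.0 CPM in KO_AML. All 3 KO_AML libraries were above all 3 WT_AML libraries, with KO_AML replicate 1 the lowest of its group. The means were 58.3 ± 7.20 and 80.6 ± 7.29 CPM (SD, n = 3 each), a log2 fold change of 0.49 (SE 0.0852, 95% interval 0.31 to 0.66, edgeR adjusted p = 0.0392), or 1.40-fold. Co-cultured MSC held 0.887 CPM with wild type and 0.772 CPM with Lama4-/- stroma. The direction held in all 14 alternative settings and replicate omissions, with log2 fold changes from 0.42 to 0.59, but the adjusted p passed in only 6 of them. It was lost when any 1 of KO_AML replicates 1, 2 and 3 or of WT_AML replicates 2 and 3 was left out (adjusted p from 0.0605 to 0.258), and also with a stricter count filter (0.185), a fit that was not robust (0.147) and a fit of all 14 co-culture libraries (1).

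Chil3 shares sequence with its neighbour Chil4, so part of its reads cannot be assigned to either gene. Of the 1606 distinct 75-base windows of its GENCODE M21 transcripts, 208 (12.95%) also occurred in another gene's transcripts, Chil4 foremost. Chil4 itself had 69 counts over WT_AML and 84 over KO_AML, against 3549 and 4360 for Chil3. The longest stretch that both genes share is 136 coding bases running from exon 9 into exon 10, at chr3:106148634-106148850 with the intron between. It is shown, in lower case throughout, because a 75-base read within it fits both genes:
Chil3 and Chil4: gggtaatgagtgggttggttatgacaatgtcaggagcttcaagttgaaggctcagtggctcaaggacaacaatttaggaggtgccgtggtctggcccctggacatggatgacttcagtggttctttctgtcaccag

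Among the 5201 leukaemia-class genes whose average log2 CPM was 3 or more, most lay in a narrow range around 0. Their log2 fold changes at the 5th and 95th percentiles were -0.16 and 0.17, and the median 95% interval was 0.343 wide. The interval lay within -1 to 1 for 5199 of them (99.96%) and within -0.5 to 0.5 for 4965 (95.5%). The smallest p among lower genes belonged to B4galt5, a galactosyltransferase, at 90.8, 91.0 and 88.5 CPM in WT_AML and 68.4, 75.6 and 72.2 CPM in KO_AML (log2 fold change -0.30, SE 0.0678, adjusted p = 0.204). Jak3, the kinase of the common gamma chain receptors, was at 44.2, 39.4 and 42.1 against 31.5, 34.9 and 31.8 CPM (log2 fold change -0.34, adjusted p = 0.430). Itgal, the alpha chain of the integrin LFA-1, was at 122, 116 and 127 against 86.8, 100 and 110 CPM (-0.28, adjusted p = 0.488). None of these 3 passed, although their groups did not overlap. With replicate number as a block, B4galt5, Jak3 and Itgal did pass (edgeR adjusted p = 0.00776, 0.0489 and 0.00776). B4galt5 and Itgal also passed with no low-count filter (0.0325 and 0.0372). Next among the lower genes by p were Bcor, a transcriptional corepressor, Yy1, a zinc finger factor, and Matk, Acpp, Marcksl1, Ptges3 and Wdr90. Their log2 fold changes ran from -0.40 to -0.21, with no adjusted p below 0.503. Bcor and Yy1 passed with the replicate block (edgeR adjusted p = 0.00678 and 0.0127), and Yy1 with no low-count filter (0.0152). On the higher side, the genes after Chil3 included B3galt1, Lyrm4, Sptssa, C1d, Eif3j1, Cenpk, Cmpk1 and Bcap29. Their log2 fold changes ran from 0.25 to 0.61, with no adjusted p below 0.641. Leukaemia-class Ighm and Ap3s1, picked after their values were seen, passed only under other settings. Ighm had 231, 99 and 120 counts in WT_AML and 28, 55 and 92 in KO_AML. It passed in edgeR with no low-count filter (adjusted p = 0.000229) and with replicate number as a block (0.0141). Ap3s1 passed in 4 of 14 settings, with log2 fold changes from -0.77 to -0.46 over all 14.

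The laminin receptor chains showed no difference that passed. Itga6 was at 23.4 ± 1.24 CPM in WT_AML and 26.1 ± 1.30 CPM in KO_AML (SD, n = 3 each), with no overlap and a log2 fold change of 0.18 (95% interval -0.03 to 0.38, adjusted p = 0.904). Itgb1 was at 235 ± 20.8 CPM in WT_AML and 227 ± 27.7 CPM in KO_AML (log2 fold change -0.03, interval -0.20 to 0.13, adjusted p = 0.980). Itgb1 fell in the stromal class, since co-cultured MSC held 2218 and 2299 CPM. The class compares levels and does not say which cells the Itgb1 transcripts came from. The median stromal share ran from 0.306% to 1.22% over the AML libraries. What part of the Itgb1 counts came from stroma was not tested. Ptprc gave a log2 fold change of 0.01 with an interval from -0.13 to 0.15 (adjusted p = 0.994).

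Of 36 gene lists, 35 had no member that passed, and the neutrophil granule list had Chil3 alone. Its other members with an unadjusted p under 0.05 were also higher: Srgn, the granule proteoglycan serglycin, the calprotectin genes S100a8 and S100a9, and Ngp, neutrophilic granule protein, with log2 fold changes from 0.18 to 0.35. That makes 5 higher members of 21, beside 2.48% higher over all genes. Under other settings Ngp passed with no low-count filter and with the replicate block (edgeR adjusted p = 0.00219 and 0.00617). Srgn passed with the block (edgeR adjusted p = 0.0456), and S100a8 and S100a9 each passed in 0 of 14 settings. The 21 members tested had a median of 0.01, against -0.00 over all genes tested, and Mpo and Elane, encoding primary granule enzymes, had -0.07 and -0.06. S100a9 was at 21.4, 20.4 and 20.0 CPM in WT_AML and 25.6, 28.0 and 21.3 CPM in KO_AML, with KO_AML replicate 3 close to the WT_AML libraries (adjusted p = 0.867).

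Cholesterol and fatty acid synthesis genes had the most members at an unadjusted p under 0.05: 9 of 32, all lower, beside 3.26% lower over all genes, with a list median of -0.11 and 0 passing the adjusted p. The summed level of the list was 3843 to 3932 CPM in WT_AML and 3388 to 3740 CPM in KO_AML, which did not overlap, and KO_AML replicate 2 was the highest of its group. No p is given for this sum.

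The MLL-AF9 programme had 24 members tested and none past the threshold, with a median of -0.07. Hoxa9 gave -0.07 and Meis1 -0.14. Hoxa5 and Hoxa10, at -0.23 and -0.14, had unadjusted p-values under 0.05 (adjusted p = 0.867 for both). Of 17 myeloid transcription factors tested, 3 were lower at an unadjusted p under 0.05 and the median was -0.22, beside 3.26% lower over all genes, and 6 of the 17 were in the stromal class, where 10.9% of genes reached that p in either direction. Cebpa, the factor that sets the granulocyte programme, was at 250, 190 and 189 CPM against 173, 183 and 169 CPM (-0.24, adjusted p = 0.867). Genes of the cell cycle stayed near 0, with medians of 0.01 over 36 S phase genes and 0.03 over 33 mitosis genes. Nuclear respiratory chain genes had a median of 0.04 over 40 members.

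**Figure D2:**
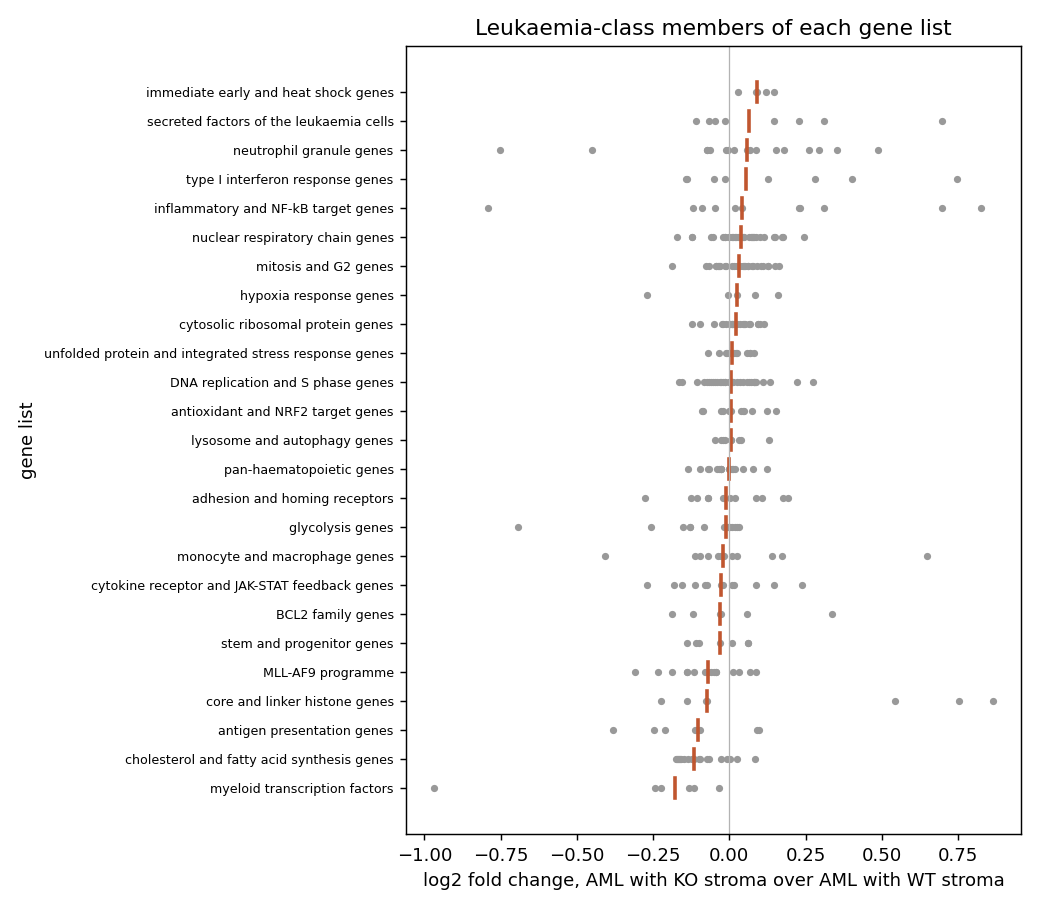
Log2 fold changes (horizontal axis, KO_AML over WT_AML) of the leukaemia-class members of each list with 5 or more such members. Grey points are genes and the red line is the median, which lies between -0.18 for myeloid transcription factors and 0.09 for immediate early and heat shock genes.

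The 13 mitochondrially encoded genes tested had a median of -0.19, and none reached an unadjusted p under 0.05. Without KO_AML replicate 2, COX1, CYTB and COX2, which encode cytochrome oxidase and cytochrome b chains, passed at -0.47, -0.47 and -0.40 (adjusted p = 0.00419, 0.0242 and 0.0307), against -0.26, -0.28 and -0.24 with all libraries. Mitochondrial transcripts made up 2.07%, 2.52% and 2.13% of WT_AML counts and 1.65%, 2.43% and 1.69% of KO_AML counts, so that KO_AML replicate 2 again lay with the WT_AML libraries. The same library had the highest stromal share of its group, and the part of either in the other was not tested. Adgre1, encoding the macrophage surface protein F4/80, was at 4.37, 4.75 and 4.83 CPM in WT_AML and 6.68, 8.53 and 6.33 CPM in KO_AML, with no overlap and an adjusted p of 0.652. It was the highest of 17 monocyte and macrophage genes tested, whose median was -0.04. Gpnmb, a glycoprotein of macrophages in the stromal class here, was at the other end at -1.28 (adjusted p = 0.867). Of the 27 genes listed, 5 had no count in any of the 6 libraries, C1qa and C1qb among them.

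The 5 genes that fell were all stromal transcripts at a few CPM or less. Lama4 had 37, 55 and 60 counts in WT_AML and 0, 0 and 1 in KO_AML, a 135-fold lower total per depth (95% counting interval 23.8 to 5352, edgeR adjusted p = 0.00105). Co-cultured MSC held 273 ± 42.3 CPM of Lama4 with wild type (n = 5) and 0.107 ± 0.125 CPM with Lama4-/- stroma (n = 3), so the WT_AML mean was 0.990% of the stromal level. Lama4 passed under all 12 alternatives that tested it.

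Igfbp3, a binding protein of insulin-like growth factors, had 29, 33 and 80 counts against 1, 2 and 0 (41.9-fold lower, interval 14.1 to 205.7, adjusted p = 0.00911), and co-cultured MSC held 377 CPM with wild type and 29.1 CPM with Lama4-/- stroma. Irx3, an Iroquois homeobox factor, had 27, 30 and 29 counts against 0, 2 and 2 (19.0-fold lower, interval 7.17 to 71.5, adjusted p = 0.0347). Itih2, an inter-alpha-trypsin inhibitor heavy chain, had 21, 23 and 30 counts against 0, 0 and 2 (32.8-fold lower, interval 8.76 to 275.6, adjusted p = 0.0392). Co-cultured MSC held 118 and 23.6 CPM of Irx3 and 153 and 43.7 CPM of Itih2, wild type first. For Igfbp3, Irx3 and Itih2 the log2 differences were -5.31, -4.20 and -4.87 in AML libraries. Between co-cultured MSC they were smaller, at -3.65, -2.27 and -1.79, and the reason was not tested. Itih2 fell below the level limit for named genes and was added after its values were seen. These genes entered the test through their WT_AML counts. With 1 library left out in turn, Lama4 passed every time, while Igfbp3, Irx3 and Itih2 each lost their call at least once. Irx3 overlaps Irx3os on the opposite strand, and the strand setting of the counting is not given in the sources used here.

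**Figure D3:**
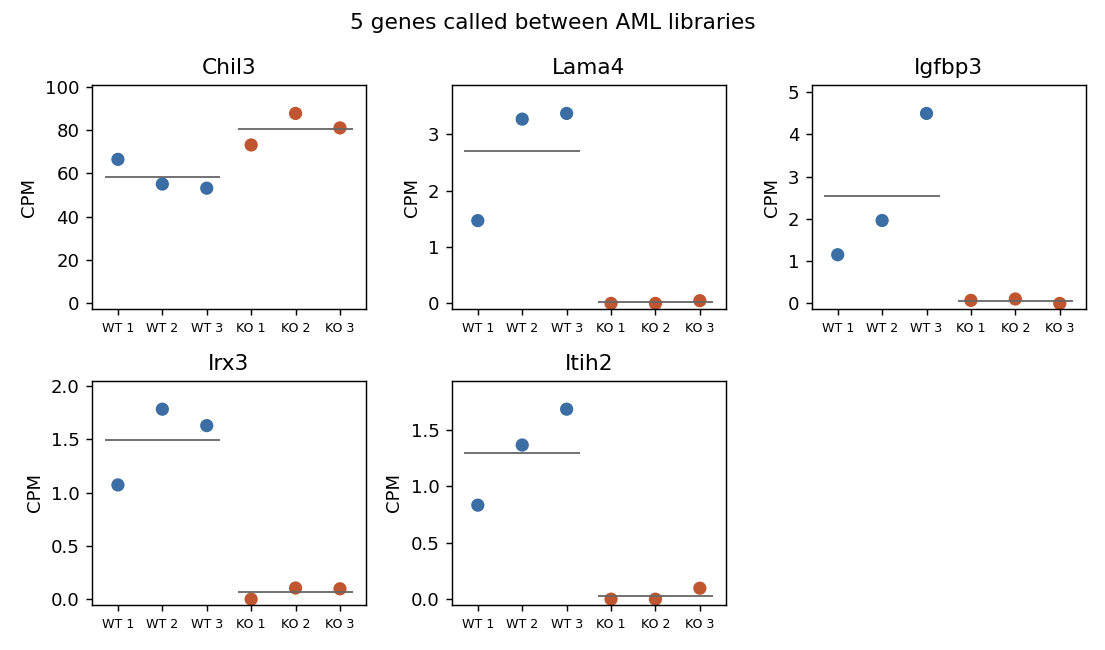
CPM (vertical axes, each from 0) of 5 called genes in each AML library, with the group mean as a line. Chil3 is at 53.2 to 66.5 CPM in WT_AML and 73.1 to 87.7 CPM in KO_AML, and the 4 stromal genes shown are at or near 0 in all 3 KO_AML libraries.

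Other stromal transcripts differed without passing. Eng, encoding the TGF-beta co-receptor endoglin, had 4, 3 and 7 counts in WT_AML and 14, 68 and 33 in KO_AML (log2 fold change 3.10, SE 0.591, adjusted p = 0.0619), and co-cultured MSC held 4.68 and 441 CPM. Dio3, Ism1, Col11a1, Adamts5, Efemp1 and Col18a1 were likewise at higher means in KO_AML, with log2 fold changes from 0.96 to 3.39 and no adjusted p below 0.433. Crispld2 was at 8.69, 12.2 and 16.0 CPM in WT_AML and 5.53, 6.07 and 5.84 CPM in KO_AML (log2 fold change -1.05, adjusted p = 0.0619). Fmod, encoding the collagen-binding proteoglycan fibromodulin and picked after its values were seen, had 605, 534 and 881 counts against 94, 88 and 69 (log2 fold change -2.84, SE 0.426, adjusted p = 0.563). Fmod passed with DESeq2 (adjusted p = 2.17e-06) and in an edgeR fit that was not robust (0.00132), at nearly the same fold change. Adamts5, Eng and Crispld2 also passed with DESeq2 (adjusted p = 0.000318, 0.00827 and 0.00902). Over the alternatives that tested them, Adamts5 passed in 2 of 12, Eng in 3 of 12 and Crispld2 in 4 of 13. Dio3 passed in 2 of 12 and Ism1 in 1 of 12, while Col11a1, Efemp1 and Col18a1 passed in 0. Fmod was at 0.903% and 0.746% of the co-cultured MSC level.

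The genotype difference of stromal transcripts in AML libraries was set beside that in co-cultured MSC. The 2 MSC groups also differed in Y-linked transcripts: Ddx3y, Uty, Kdm5d and Eif2s3y summed to 169.5 to 190.9 CPM in the 5 wild type libraries and to 0 to 2.57 CPM in the 3 Lama4-/- libraries, so genotype and the sex of the source mice cannot be told apart in this ratio. KO_AML replicate 2 had 42 counts of these genes, KO_AML replicates 1 and 3 had 7 and 0, and the WT_AML libraries had 16, 24 and 24. Some stromal genes also varied within wild type MSC cultured alone. Replicate 1, with 3.73 CPM of the Y-linked genes, held 346 CPM of Eng and 24.9 CPM of Irx3. Replicates 2 to 4, with 165 to 186 CPM, held 4.69 to 5.80 and 106 to 128 CPM. The Lama4-/- libraries cultured alone held 260 to 430 and 20.6 to 32.9 CPM. Lama4 in wild type replicate 1 was at 344 CPM. Fmod there was at 6301 CPM, against 549 to 2468 CPM in those Lama4-/- libraries. The cause was not tested. Over the 1150 stromal-class genes the log2 ratios of Lama4-/- to wild type had a Pearson correlation of 0.61 and a Spearman correlation of 0.44. Over 5201 leukaemia-class genes they were -0.01 and -0.02. These are correlations across genes, which are not independent replicates, and the classes were set from the same libraries. Of 173 stromal-class genes at least 2-fold higher in Lama4-/- MSC, 124 (71.7%) were higher in KO_AML, with a median log2 fold change of 0.33. Of 54 at least 2-fold lower, 49 (90.7%) were lower in KO_AML, with a median of -1.12. The 923 others had a median of -0.18, so most of them were lower in KO_AML too, and the 90.7% is to be read beside that. The stromal share was lower in 2 of the 3 KO_AML libraries than in any WT_AML library, and its part in these values was not tested. How well the co-cultured Lama4-/- MSC match the stroma of each KO_AML library was not tested either.

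**Figure D4:**
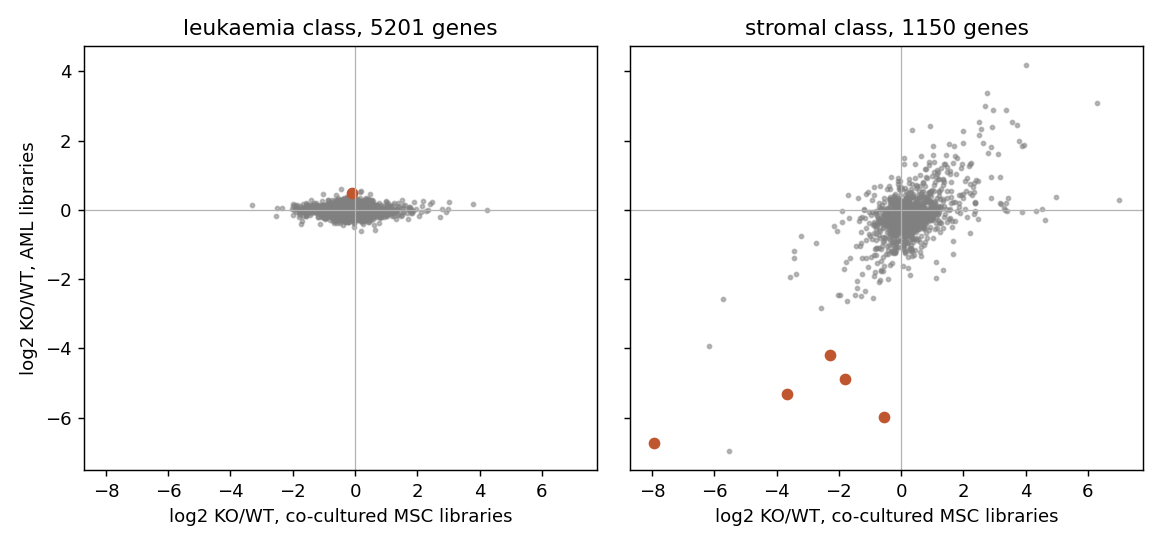
Log2 ratio of Lama4-/- to wild type in AML libraries (vertical axis) against that in co-cultured MSC (horizontal axis), for 5201 leukaemia-class genes whose average log2 CPM was 3 or more and for 1150 stromal-class genes. Red points are called genes: the stromal cloud slopes with a Pearson correlation of 0.61, and the leukaemia cloud is flat at -0.01.

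The authors' deposited table gives 41 genes at an adjusted p under 0.05 for this comparison, 10 higher and 31 lower. By the classes used here, 40 of the 41 were stromal, 1 lay between, and 0 were in the leukaemia class. In the authors' deposited table Chil3 had a log2 fold change of 0.48 and was not among the 41. In the authors' deposited table, 5 of the 41 genes were also called by edgeR. The authors' deposited table has a log2 fold change of 18.58 for Rps4l, which had 0 counts in WT_AML and 8 in KO_AML, and 9 of its calls have fewer than 10 counts over the 6 libraries.

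The traces of stroma were also compared with single MSC libraries, over 51 stromal genes that vary between MSC libraries and were selected after the data were seen. KO_AML replicate 1 had its highest Spearman correlation with Lama4-/- MSC cultured alone, replicate 1 (0.847, next 0.604). KO_AML replicate 2 was closest to replicate 2 of the MSC cultured alone (0.872, next 0.861 with replicate 4), and KO_AML replicate 3 to replicate 3 (0.846, next 0.816 with co-cultured replicate 2). The WT_AML libraries had correlations of 0.617 to 0.758 with the 5 wild type co-cultured libraries, 0.63 to 0.77 with replicates 2 to 4 of wild type MSC cultured alone, and at most 0.418 with any Lama4-/- library. They did not match by number: WT_AML replicate 1 had 0.0425 with wild type MSC cultured alone, replicate 1, and WT_AML replicate 3 was closest to replicate 2 (0.768). These are correlations across genes of a few counts each, given with no p, and whether the libraries share a source was not tested.

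**Figure D5:**
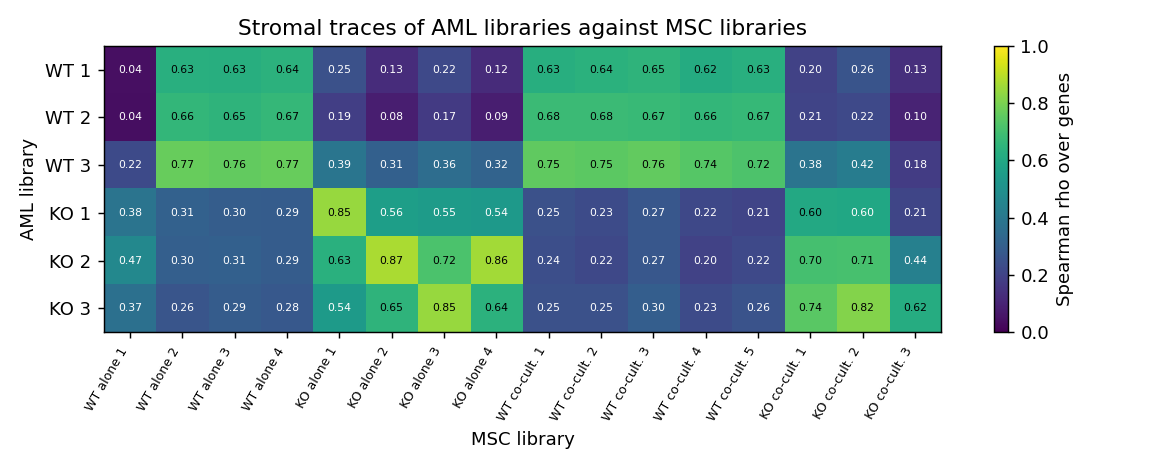
Spearman correlation (colour and printed value) over 51 stromal genes between each AML library (rows) and each MSC library cultured alone or with AML cells (columns). The 3 KO_AML libraries have their highest values, 0.847, 0.872 and 0.846, with the Lama4-/- MSC cultured alone that carry the same replicate number.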

How the data were processed

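RNA of sorted cells was amplified with SMART-Seq v4 and sequenced as 75 bp single-end reads, per the labels' protocols. The submitters' processing notes name FastQC 0.11.8, MultiQC 1.7, STAR 2.6.1d, featureCounts, Subread, DESeq2 and GRCm38 (mm10). The deposited values used here are raw counts per gene, with 27179 rows, of which 1275 name no gene symbol (0.747% to 0.817% of AML counts). The log2 fold change and adjusted p-value columns of the authors' own comparison were used only where the authors' deposited table is named. The 22 per-sample columns of normalized values were not used.

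Genes of the 6 AML libraries were kept by filterByExpr and tested with edgeR 4.0.16 (R 4.3.3) by a robust quasi-likelihood fit after TMM scaling, with Benjamini-Hochberg adjustment over all genes tested. DESeq2 1.42.0 was an alternative. The fit was tested on simulated data, where false calls were somewhat above the nominal share when dispersions varied between genes, so a call close to the threshold may be liberal. Classes used TMM-scaled CPM over the co-culture libraries. Intervals of count ratios are exact and cover counting error only.

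Named genes were Lama4, Itga6, Itgb1 and Ptprc, then called genes whose groups do not overlap, up to 12 leukaemia-class (average log2 CPM of 3 or more) and 5 stromal-class (0 or more) in each direction. Where fewer than 5 passed, the 10 smallest p-values in that direction were added, and up to 2 genes each way per list. Some genes that this rule names are not reported here. Members and lists were chosen with earlier results of these data known.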

Additional observations from a re-analysis of the deposited data

How the results depend on the processing

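Counts of called genes moved with the processing. With no low-count filter 49 genes passed, 8 of them leukaemia-class and 34 stromal-class. DESeq2 called 19, with 2 leukaemia-class (Chil3 and Ap3s1) and 17 stromal-class genes. A fit that was not robust called 3, with 0 leukaemia-class and 3 stromal-class. A filter of 100 counts in 3 libraries left 0 called by edgeR (0 leukaemia-class, 0 stromal-class), with 546 genes at an unadjusted p under 0.05. A fit of all 14 co-culture libraries called 7 genes, 0 of them leukaemia-class. Among leukaemia-class genes alone, 1 was called. RLE scaling called the same 6 genes, and the 3 other class definitions gave 1 leukaemia-class and 5 stromal-class genes. With 1 library left out, the count ran from 1 to 28, leukaemia-class calls from 0 to 1 and stromal-class calls from 1 to 23. The stromal share difference ran from -0.56 to -0.156 percentage points with 1 library left out, and from -0.350 to -0.153 under the other definitions. The causes were not tested.

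Same-numbered libraries had correlations of 0.257, 0.0878 and -0.0203 between their deviations from the group means. Differently numbered libraries of the 2 groups ran from -0.309 to 0.217. With 3 libraries per group, these values cannot decide whether the replicate numbers pair the libraries. With the replicate block, 58 genes passed, 14 of them leukaemia-class and 21 stromal-class, and 7 were mitochondrially encoded. Over the genes named in the text other than Ighm, called genes lost their call 26 times (Chil3 8, Itih2 7, Irx3 6, Igfbp3 5). Genes not called passed 34 times, and 9 values changed sign, none past the threshold. With 1 library left out, Itgb1 ran from -0.106 to 0.0355, Ptprc from -0.0437 to 0.0658, Flt1 from -0.00503 to 0.169 and Mcpt8 from -0.212 to 0.00585. Ptprc was -0.0109 in the fit of 14 libraries and -0.000798 among leukaemia-class genes alone. Low counts limit the stromal-class genes: 249 of 1150 had an average log2 CPM of 3 or more.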
